A study of Arabidopsis thaliana with 8 samples.

Results

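The MIR157 family of Arabidopsis thaliana has 4 precursors in the deposited tables, MIR157a, MIR157b, MIR157c and MIR157d (miR157a, miR157b, miR157c and miR157d by the names of their miRNAs), of 108 precursors in all. They were taken by name, as every precursor entry of that family number with a letter from a to d, in all 8 libraries. The libraries were made by SPARE (Specific Parallel Analysis of RNA Ends), in which the 5′ ends of fragments left by the cleavage of a MIRNA precursor are sequenced. Whole seedlings of 4 genotypes, 10 days old and grown in continuous light, were each sampled in 2 libraries. The genotypes were the homozygous mutants fiery1 (Fiery1 -/-), hyl1 (Hyl1 -/-) and se (Se -/-), and the wild type (Col). No allele name or transgene is given in the labels, and the same age and light are given for all of them. The study set out to locate processing intermediates in wild-type and mutant plants.

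miR157 belongs with miR156 to the group of plant miRNAs that repress SPL transcription factors, which promote the change from juvenile to adult growth, and SPL factors in turn raise miR172. A plant precursor folds into a hairpin that the nuclease DCL1 cuts on the base side and on the loop side of the miRNA duplex. HYL1, a double-stranded RNA-binding protein, and SE (SERRATE), a zinc-finger protein, work with DCL1. FIERY1 is a phosphatase, and in its absence the XRN exoribonucleases, which degrade uncapped RNA from the 5′ end, are inhibited. In SPARE a tag that starts at the first base of the 3′ arm strand (3p strand) marks a cut on the loop side, here called a loop-proximal end. A tag that starts just after that strand marks a cut on the base side, a base-proximal end.

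The mature strands are shown because they are shared among the precursors, whereas the sequence around them is what tells the precursors apart. They were read from the RefSeq copy of the TAIR10.1 genome at its annotated positions, and capitals mark bases 2 to 8.
miR157a-5p, miR157b-5p and miR157c-5p: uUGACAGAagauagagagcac
miR157d: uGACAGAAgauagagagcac
miR157a-3p and miR157b-3p: gCUCUCUAgccuucugucauc
miR157c-3p: gCUCUCUAuacuucugucacc
The 3 longer 5p strands are identical over 21 bases. miR157d is annotated with 20 bases, all of them identical to the last 20 of the others, so its bases 2 to 8 lie 1 base further along the same sequence. miR157c-3p matches the other 3p strands at 18 of 21 bases and has the same bases 2 to 8. No 3p strand of MIR157d is annotated in the reference, so its ends could not be sorted into loop-proximal and base-proximal ones.

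The 4 genes lie on chromosomes 1 and 3 of TAIR10.1. MIR157a (AT1G66783) spans chr1:24913202-24913299 on the minus strand and MIR157b (AT1G66795) spans chr1:24921086-24921217 on the plus strand. MIR157c (AT3G18217) spans chr3:6244500-6244716 on the minus strand and MIR157d (AT1G48742) spans chr1:18026811-18027031 on the minus strand. In MIR157a and MIR157b the strands of the duplex are 50 nt apart, and in MIR157c they are 125 nt apart, so the loop part of the MIR157c hairpin is the longer one. RNAfold gave minimum free energies of -46.4 kcal/mol for MIR157a, -55.3 kcal/mol for MIR157b, -75.7 kcal/mol for MIR157c and -74.2 kcal/mol for MIR157d, over annotated lengths of 98, 132, 217 and 221 nt.

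The 3′ arms are shown because nearly all informative tags started in them. Capitals mark the 3p strand, with 10 bases before it and 20 after it.
MIR157a, chr1:24913185-24913235, minus strand: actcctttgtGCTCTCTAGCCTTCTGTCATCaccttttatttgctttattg
MIR157b, chr1:24921165-24921215, plus strand: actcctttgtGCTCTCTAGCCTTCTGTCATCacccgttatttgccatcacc
MIR157c, chr3:6244507-6244557, minus strand: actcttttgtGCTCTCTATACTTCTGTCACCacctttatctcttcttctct
The 10 bases before the strand are the same in MIR157a and MIR157b, and these arms part within the bases after it. The 4 precursors gave 76 distinct tags, of which 74 matched the genome at 1 place and 2 matched at 3 places. The tags at 3 places held 39 counts, so counts were tied to their own locus in nearly all cases.

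Library totals lay between 35860 counts in hyl1 replicate 2 and 821562 counts in fiery1 replicate 2. The tags of 26 nt or more numbered 453388 and 795030 in the fiery1 libraries, 45108 and 25753 in the hyl1 libraries, 41677 and 82159 in the se libraries, and 56554 and 121429 in the wild-type libraries. The share of tags of 18 to 25 nt was 3.70% and 3.23% in the fiery1 libraries, 1.19% and 28.2% in the hyl1 libraries, 86.1% and 83.9% in the se libraries, and 29.5% and 4.05% in the wild-type libraries. The se libraries stand apart in this share, and hyl1 replicate 1 and se replicate 2 carry later sample numbers than the rest. A level below is a precursor's percent of the counts of its length class in a library. Each precursor was reverse-transcribed from primers of its own, so a share of counts between precursors is not a ratio of RNA levels. Whole seedlings were used, so fewer cells with a precursor and less of it per cell cannot be told apart.

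MIR157c held nearly all of the family's long tags, and its level was lower in fiery1 than in wild type. Of the 52150 family counts of 26 nt or more, MIR157c had 48133 (92.3%), MIR157a 2859 (5.48%), MIR157b 1158 (2.22%) and MIR157d 0. MIR157c made up between 85.8% of the family's counts, in fiery1 replicate 1, and 100%, in wild type replicate 2. By count it ranked 12th and 12th among the precursors of the fiery1 libraries, 4th and 3rd in hyl1, 6th and 8th in se, and 3rd and 3rd in wild type.

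MIR157c had 8094 and 15514 counts in the fiery1 libraries, 4368 and 3153 in hyl1, 1341 and 2744 in se, and 4695 and 8224 in wild type. These were 1.79% and 1.95% of the long tags in fiery1, 9.68% and 12.2% in hyl1, 3.22% and 3.34% in se, and 8.30% and 6.77% in wild type. The genotype means were 1.87% ± 0.117 in fiery1, 11.0% ± 1.81 in hyl1, 3.28% ± 0.0865 in se and 7.54% ± 1.08 in wild type (SD, n = 2 each). Ordered by level, fiery1 was lowest, then se, then wild type, then hyl1, and no pair of neighbours in that order overlapped on this scale. Against wild type the exact permutation p was 0.333 for each mutant (n = 2 against 2), the smallest possible. How many other precursors lack overlap on this scale was not counted. After TMM normalisation, which corrects for the makeup of each library, the hyl1 and wild-type libraries did overlap.

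**Figure D1:**
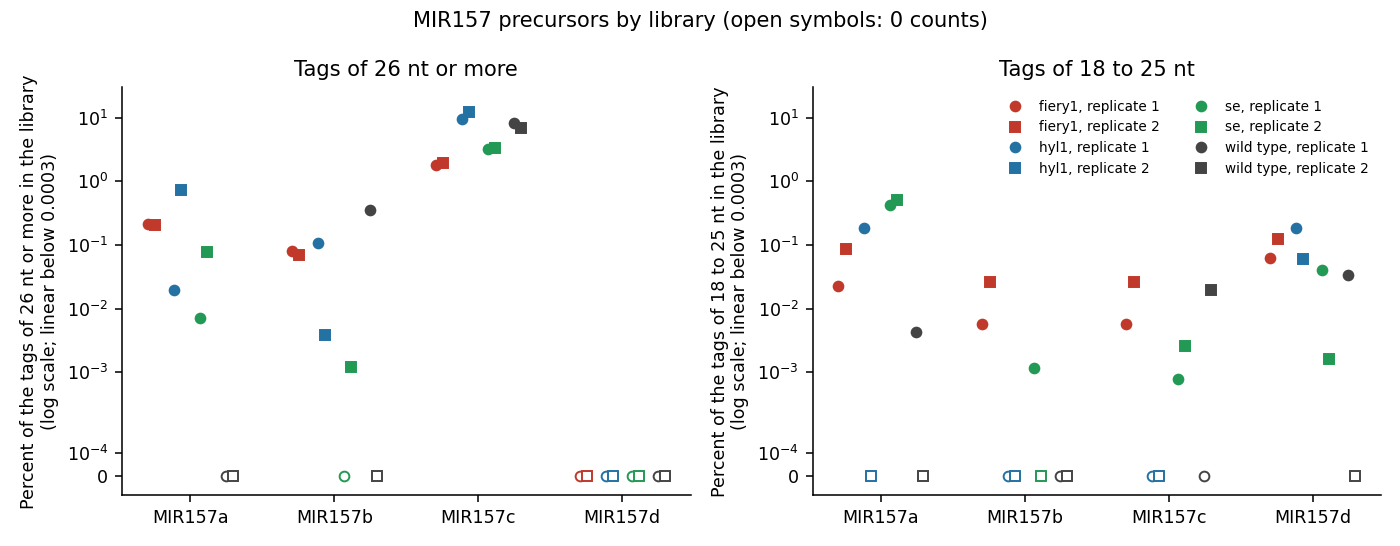
Level of each MIR157 precursor in every library, as a percent of the tags of 26 nt or more (left) or of 18 to 25 nt (right), on a log axis that turns linear near 0. Colours stand for genotypes, circles for replicate 1, squares for replicate 2 and open symbols for 0 counts. MIR157c lies between 1.79% and 12.2% of the long tags in every library, MIR157a has 0 long counts in both wild-type libraries, and MIR157d has 0 long counts in all 8.

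Abundance was tested with edgeR over 74 precursors of the long tags that passed a filter on low counts, out of 90 with any count, and MIR157a, MIR157b and MIR157c were among the 74. In fiery1 against wild type, 1 of these 3 was called at an adjusted p under 0.05, against 20.3% of all tested precursors, 13.5% being higher and 6.76% lower. The one called was MIR157c, which was lower in fiery1 with 15700 ± 979 CPM (normalised counts scaled to a common library size), against 85100 ± 3580 CPM in wild type (SD, n = 2 each). Its log2 fold change was -2.44 ± 0.52 (SE, edgeR quasi-likelihood test, adjusted p = 0.0198), while the median over all 74 precursors was 1.34, or 1.91 when libraries were scaled by their totals. Relative to its libraries MIR157c was thus lower in fiery1, while the typical precursor had a positive value. By raw count the libraries overlapped, with 8094 and 15514 counts in fiery1 and 4695 and 8224 in wild type. The call was lost when any of 3 libraries was left out and kept without the remaining one: the edgeR adjusted p was 0.187 without fiery1 replicate 1, 0.115 without fiery1 replicate 2, 0.0724 without wild type replicate 1 and 0.0471 without wild type replicate 2. With tags of all lengths counted together the log2 fold change was -2.16 with an edgeR adjusted p of 0.0907.

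In hyl1 and se no MIR157 precursor was called by edgeR, as for all precursors tested in these genotypes, where 0% were called in either. MIR157c had a log2 fold change of 0.61 ± 0.49 in hyl1 (SE, edgeR adjusted p = 0.487) and -1.43 ± 0.50 in se (SE, edgeR adjusted p = 0.217). At an unadjusted p under 0.05, 1 member passed in hyl1 and 2 in se, and DESeq2 called 1 member in hyl1 and 2 in se. In se these were MIR157a and MIR157c under both readings, and with DESeq2 MIR157c had -1.45 ± 0.33 (SE, adjusted p = 0.000193). Across all 74 precursors, 14 in hyl1 and 16 in se had an unadjusted p under 0.05, and DESeq2 called 19 and 21.

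The 5′ ends of MIR157c clustered at the borders of miR157c-3p in every library, with more of them at the base side in fiery1. Of its 48133 long counts, 57.8% were base-proximal, within 1 nt of the position just after the 3p strand, and 22.0% were loop-proximal, within 1 nt of its first base. A further 7.41% started 2 nt past that first base. Ends between the strands made up 2.74%, ends in the rest of the 3p strand 3.56%, and ends after the base-proximal window 5.79%. No long tag of MIR157a, MIR157b or MIR157c started within 1 nt of the first base of the 5p strand, where a base-side cut on the 5′ arm would leave an end.

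Base-proximal ends made up 68.2% and 72.8% of MIR157c in fiery1, 32.6% and 50.7% in hyl1, 42.0% and 28.3% in se, and 47.5% and 53.6% in wild type. Both fiery1 libraries lay above both wild-type libraries, both se libraries lay below them, and hyl1 overlapped with wild type. The Wilson 95% intervals were at most a few points wide, for example 67.2% to 69.3% in fiery1 replicate 1 and 46.1% to 49.0% in wild type replicate 1. The difference was 19.9 points in fiery1, 70.5% ± 3.19 against 50.6% ± 4.28 in wild type (SD, n = 2 each). In se it was -15.4 points. With 2 libraries against 2 the smallest two-sided p of an exact permutation test is 0.333, which both comparisons gave, so no share could pass a threshold of 0.05. Libraries that did not overlap were common among the precursors for which each library compared held 20 counts or more. In fiery1 the base-proximal share was higher without overlap in 45% of 20 precursors and lower in 30%, in hyl1 higher in 5.88% of 17 and lower in 35.3%, and in se higher in 0% of 17 and lower in 58.8%.

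Loop-proximal ends made up 8.93% and 10.7% of MIR157c in fiery1, 32.9% and 25.3% in hyl1, 16.9% and 36.3% in se, and 46.3% and 31.4% in wild type. The fiery1 libraries were the lowest of all 8, while hyl1 and se each had a library within the wild-type range. The difference was -29.1 points in fiery1, 9.83% ± 1.26 against 38.9% ± 10.5 in wild type (SD, n = 2 each, exact permutation p = 0.333), and without overlap 30% of 20 precursors were lower there and 20% higher. In hyl1 and in se, 23.5% of 17 precursors were lower without overlap and 0% higher. Within 2 nt of the first base, a window chosen after the ends 2 nt past it were seen, the shares were 14.3% and 15.0% in fiery1, 50.4% and 38.3% in hyl1, 25.3% and 36.4% in se, and 52.4% and 42.3% in wild type. With that window both se libraries also lay below wild type, but other precursors were not compared with it.

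**Figure D2:**
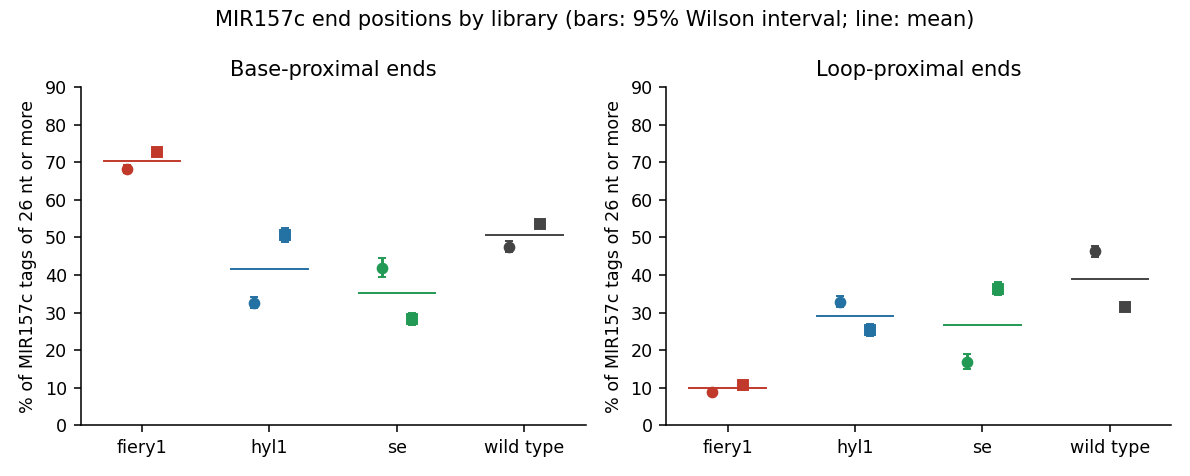
Share of the MIR157c tags of 26 nt or more with base-proximal ends (left) and loop-proximal ends (right), in percent, per library and genotype. Circles are replicate 1, squares replicate 2, bars 95% Wilson intervals for counting error and lines the means of 2 libraries. The fiery1 libraries have the highest base-proximal shares (68.2% and 72.8%) and the lowest loop-proximal shares (8.93% and 10.7%).

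For each loop-proximal count there were 7.64 and 6.79 base-proximal counts in fiery1, 0.991 and 2.0 in hyl1, 2.49 and 0.779 in se, and 1.03 and 1.70 in wild type. Neither mutant of the DCL1 partners left the wild-type range as a pair, since 1 library of each lay above it and 1 below. Relative to the long tags of the whole library, both kinds of end were lower in fiery1. Base-proximal ends of MIR157c were 1.22% and 1.42% of the library in fiery1, 3.16% and 6.21% in hyl1, 1.35% and 0.946% in se, and 3.95% and 3.63% in wild type. Loop-proximal ends were 0.159% and 0.209% in fiery1, 3.19% and 3.10% in hyl1, 0.542% and 1.21% in se, and 3.85% and 2.13% in wild type. In fiery1 the base-proximal mean was 2.87-fold lower and the loop-proximal mean 16.2-fold lower than in wild type (exact permutation p = 0.333 for each, n = 2 against 2). In se both ends were also below wild type in both libraries, but replicate 1 was the higher one in base-proximal ends and replicate 2 in loop-proximal ends.

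The single position with the most MIR157c counts was chromosome 3, 6244525, which lies 1 nt beyond the first base after miR157c-3p. It held 5523 and 11284 counts in fiery1, 1426 and 1598 in hyl1, 563 and 777 in se, and 2232 and 4399 in wild type. The first base after the strand held 0 counts, so the base-proximal share within 1 nt is a share at this neighbouring base. MIR157a and MIR157b had the same offset, with 2257 of 2257 base-proximal counts of MIR157a and 380 of 380 of MIR157b at the base 1 nt further on. In the arms printed above, these tags thus start at the second lower-case base after the capitals. Among the 45 precursors whose base-proximal ends could be placed against an annotated 3p strand, 35 (77.8%) had their top end at the first base after it and 7 (15.6%) 1 nt further on. MIR156a, MIR156b and MIR156c were among those at the first base. The top end of MIR156d had the same offset as the MIR157 precursors, but with only 349 of its 735 base-proximal counts there and 97 at the first base.

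The loop-proximal top end was the first base of the 3p strand in all 3 precursors, with 246 of 246 counts in MIR157a, 279 of 279 in MIR157b and 8424 of 10607 in MIR157c. In MIR157c this is chromosome 3, 6244547, with 471 and 1525 counts in fiery1, 1308 and 797 in hyl1, 225 and 627 in se, and 1745 and 1726 in wild type. The ends 2 nt past it, at 6244545, made up 5.35% and 4.31% of MIR157c in fiery1, 17.4% and 13% in hyl1, 8.43% and 0.0729% in se, and 6.03% and 10.9% in wild type. Both hyl1 libraries lay above both wild-type libraries and both fiery1 libraries below them, while se replicate 1 lay within the wild-type range and se replicate 2 far below it (exact permutation p = 0.333 for hyl1 and for fiery1, n = 2 against 2). Such ends were not compared over other precursors, so whether these differences are particular to MIR157c was not tested. The position at 6244546, just before it, held 252 and 138 counts in fiery1, 131 and 1 in hyl1, 1 and 183 in se, and 430 and 713 in wild type.

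**Figure D3:**
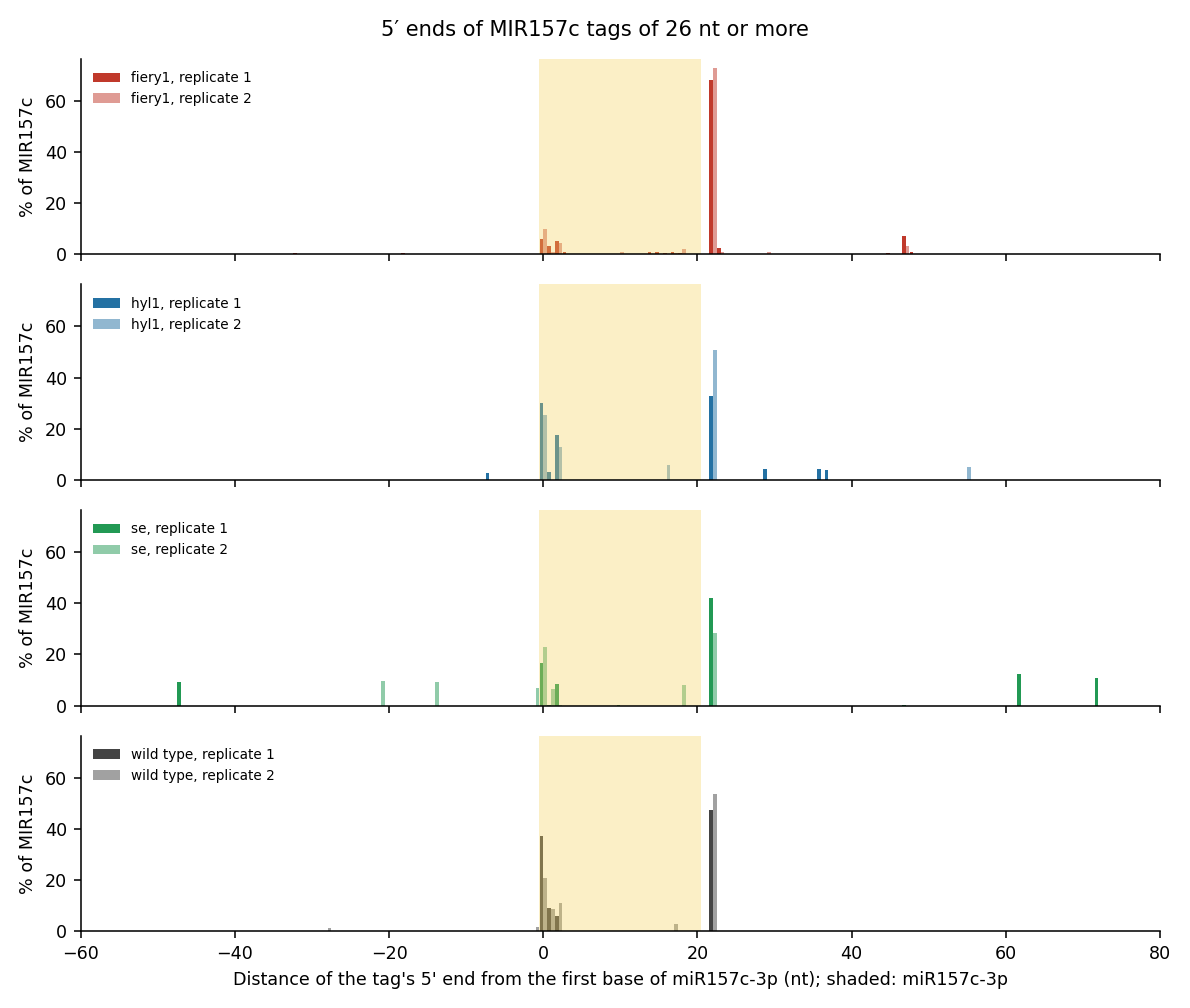
5′ ends of the MIR157c tags of 26 nt or more, as the percent of MIR157c counts in a library (vertical axis) by distance in nt from the first base of miR157c-3p (horizontal axis), with 1 panel per genotype and the bars of replicate 1 (dark) and replicate 2 (pale) side by side at each nt. The shaded band is miR157c-3p; 7 positions more than 60 nt before it are not drawn, with at most 6.09% of a library's MIR157c at any of them. Ends at 0 nt and 22 nt are seen in every library, and the bar at 22 nt reaches 72.7% in fiery1 replicate 2.

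Ends elsewhere differed between replicates except in fiery1. MIR157c had tags at 41 positions, of which 4 were used in all 8 libraries. Both fiery1 libraries used the same 23 positions, and 10 of these were seen in no other library. In contrast, hyl1 libraries shared 4 of 13 positions, se libraries 4 of 19 and wild-type libraries 6 of 14. Thinned to 1341 counts, the expected number of positions was 20.8 and 21.2 in fiery1, 9.31 and 5.85 in hyl1, 9.0 and 12.1 in se, and 5.35 and 8.45 in wild type. The fiery1 libraries were the highest at this equal depth, 3.04 times the wild-type mean, and both se libraries also lay above both wild-type libraries (exact permutation p = 0.333 for each, n = 2 against 2). Over all precursors the fiery1 libraries also held the most distinct tags, 1649 and 1745, against 308 to 693 in the other libraries. Other precursors were not compared at equal depth, so whether the larger number of positions is particular to MIR157c was not tested. Of the 13 positions used in 1 library only, 11 had more than 20 counts and the highest had 260.

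Downstream of the base-proximal window, ends made up 11.1% and 5.67% of MIR157c in fiery1, 12.2% and 5.04% in hyl1, 23.3% and 0.0729% in se, and 0.0426% and 0.0122% in wild type. These were 899 and 879 counts in the fiery1 libraries, 531 and 159 in hyl1, 313 and 2 in se, and 2 and 1 in wild type, so se replicate 2 was as low as wild type and the other mutant libraries were far above it. The fiery1 libraries shared their main downstream end, chromosome 3, 6244500, which is the last annotated base of the precursor, with 577 and 528 counts. The other mutants did not repeat theirs. In hyl1 replicate 2 all 159 counts were at 6244492, where hyl1 replicate 1 had 0, and in se replicate 1 the counts were mostly at 6244485 and 6244475, with 167 and 144 counts against 0 in se replicate 2. Upstream, se replicate 2 alone had 260 counts at 6244568 and 256 at 6244561, both between the strands.

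MIR157a was found among the long tags of the mutants and not of wild type. It had 977 and 1617 counts in fiery1, 9 and 189 in hyl1, 3 and 64 in se, and 0 and 0 in wild type. Against a floor of 3 counts per library, its mean level was at least 41.8-fold higher in fiery1, 126-fold higher in hyl1 and 10.8-fold higher in se than in wild type. The edgeR adjusted p was 0.0800 in fiery1, 0.225 in hyl1 and 0.217 in se, so none was called, although no mutant library was as low as the wild-type ones. DESeq2 called it in all 3 mutants, with adjusted p-values of 0.00187 in fiery1, 0.00287 in hyl1 and 0.0258 in se. In a fit of se and wild type only, MIR157a did not pass the filter on low counts and was not tested, so its test in se depends on the counts of the other mutants. In such fits of fiery1 or hyl1 it passed through the mutant counts alone, since wild type had 0. All of these tests thus rest on libraries in which MIR157a is high, and the DESeq2 calls add no separate support. The reads carry no molecular identifiers, so floors and intervals cover counting error only, and the folds above are not strict bounds.

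The fiery1 libraries repeated their MIR157a ends, while the other pairs shared at most the base-proximal end, with 1 count in each se library. In fiery1, 92.7% and 83.4% of counts were base-proximal, all at chromosome 1, 24913203, and 1.94% and 14% were loop-proximal. The base 1 nt further downstream, 24913202, held another 5.32% and 2.66%. In hyl1 replicate 2 all 189 counts were at 1 position, 24913233, which lies 8 nt before the 3p strand, and 8 of the 9 counts of hyl1 replicate 1 lay before the 5p strand. In se replicate 2, 63 of 64 counts were at 24913186, 18 nt past the base-proximal site. The bounds for hyl1 and se therefore rest mostly on 1 position of 1 library each.

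MIR157b had 362 and 545 counts in fiery1, 48 and 1 in hyl1, 0 and 1 in se, and 201 and 0 in wild type. By count both fiery1 libraries lay above both wild-type libraries. As a percent of the long tags, fiery1 had 0.0798% and 0.0686% and wild type 0.355% and 0%. On that scale the wild-type libraries lay on both sides of every mutant library except se replicate 1, which also had 0. For MIR157b edgeR gave log2 fold changes of -1.49 ± 2.74 in fiery1 (SE, adjusted p = 0.737) and -1.83 ± 2.78 in hyl1 (SE, adjusted p = 0.732). Without wild type replicate 1 the edgeR values turned positive, 10.35 in fiery1 with an adjusted p of 0.132, 10.02 in hyl1 with 0.316 and 4.01 in se with 0.650, so 1 library sets their direction. In se the summed counts, scaled by library sizes after TMM normalisation, were 0.00596 times those of wild type (exact 95% counting interval 0.000150 to 0.0336). The edgeR adjusted p was 0.240. In a fit of se and wild type only, MIR157b did not pass the filter on low counts, so its test in se depends on the counts of other genotypes.

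The ends of MIR157b were spread over 5 positions in fiery1 and stood at 1 position in each other library with 20 or more counts. In fiery1, 30.9% and 49.0% were base-proximal, at chromosome 1, 24921197, and 12.7% and 5.87% were loop-proximal. A further 42.0% and 40.9% lay inside the 3p strand, at 24921180 (139 and 73 counts) and 24921189 (13 and 150 counts), while MIR157a had no end inside its identical 3p strand. The remaining 52 and 23 counts were at 24921221, 25 nt past the base-proximal site. All 48 counts of hyl1 replicate 1 were at 24921180, and all 201 counts of wild type replicate 1 were loop-proximal, at 24921175.

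**Figure D4:**
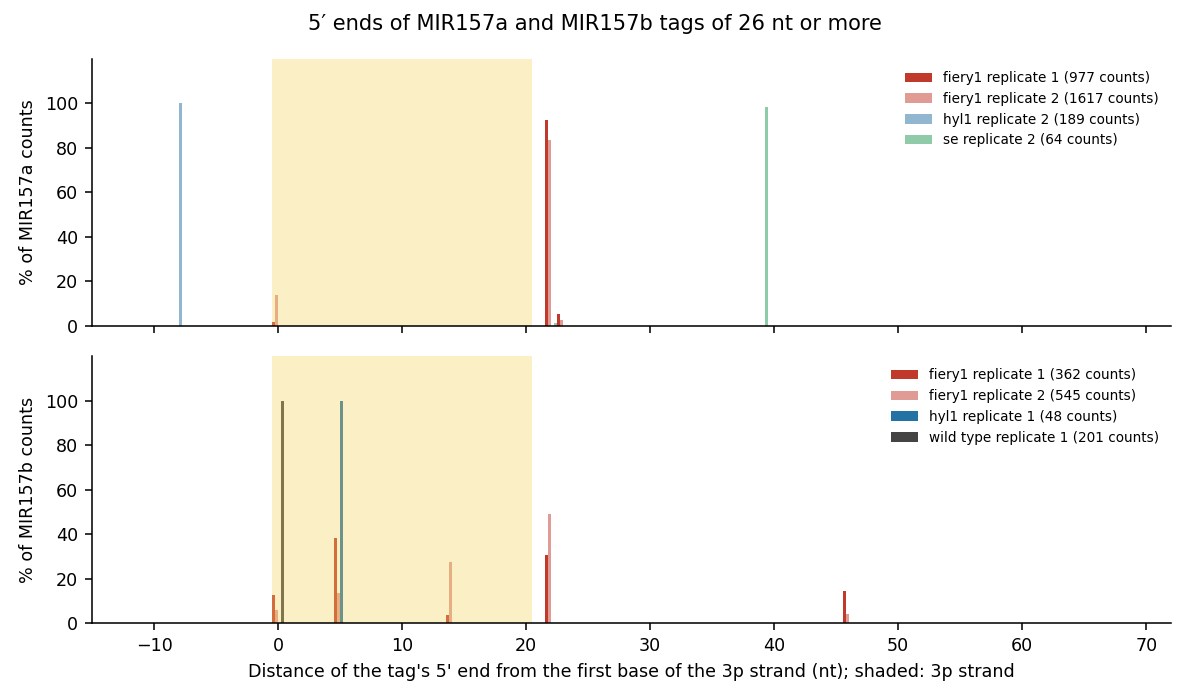
5′ ends of MIR157a (upper) and MIR157b (lower) tags of 26 nt or more, as the percent of the precursor's counts in a library (vertical axis) by distance in nt from the first base of the 3p strand (horizontal axis), for the libraries with 20 or more counts, whose bars stand side by side at each nt. The shaded band is the 3p strand. The fiery1 libraries share their positions, with 92.7% and 83.4% of MIR157a at 22 nt, whereas the hyl1, se and wild-type libraries each have 98.4% or more of their counts at 1 position.

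MIR157d gave no long tag in any library. Its share of the long tags could be up to 0.000662% and 0.000377% in fiery1, 0.00665% and 0.0116% in hyl1, 0.00720% and 0.00365% in se, and 0.00530% and 0.00247% in wild type, the limits that 0 counts allow. It was found among the tags of 18 to 25 nt, with 11 and 33 counts in fiery1, 1 and 6 in hyl1, 106 and 7 in se, and 8 and 0 in wild type. On the normalised scale the wild-type libraries overlapped with those of each mutant. For MIR157d edgeR gave log2 fold changes of 0.71 in fiery1, 0.90 in hyl1 and -0.83 in se, with adjusted p-values of 0.840, 0.817 and 0.858. In a fit of hyl1 and wild type only, MIR157d did not pass the filter on low counts, so its test in hyl1 depends on the counts of other genotypes.

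MIR157a was the MIR157 precursor with the most short tags, nearly all of them in se. It had 4 and 23 counts of 18 to 25 nt in fiery1, 1 and 0 in hyl1, 1081 and 2145 in se, and 1 and 0 in wild type. As a percent of the short tags this was 0.419% and 0.501% in se, against 0.00424% and 0% in wild type. The summed counts, scaled by library sizes after TMM normalisation, were 97.6 times those of wild type (exact 95% counting interval 17.5 to 3860), on 1 wild-type count. The edgeR log2 fold change was 6.58 ± 1.80 (SE) with an adjusted p of 0.0878, so no call was made, and 0% of the 78 precursors tested were called in fiery1, in hyl1 or in se. It had an unadjusted p of 0.00338 and was called by DESeq2 (adjusted p = 0.0130). In fiery1 and hyl1 no member passed an unadjusted p under 0.05 or was called by DESeq2. In fits of 1 mutant and wild type only, MIR157a passed the filter on low counts in se, through its se counts. In such fits of fiery1 or hyl1 it did not pass, so its tests there depend on the counts of other genotypes. Over all 78 precursors, 17 in fiery1, 8 in hyl1 and 14 in se had an unadjusted p under 0.05, and DESeq2 called 8, 1 and 4. MIR157b had 11 short counts in all and MIR157c 22, and neither passed the filter on low counts.

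The short tags did not lie in the miRNA duplex. The most counted ones are printed to show where they lie, with the whole tag in lower case.
MIR157a, chr1:24913086-24913108, minus strand: agagtgattgaaacagttatgaa
MIR157b, chr1:24921294-24921314, plus strand: tgcaactatcagaatgcagat
MIR157c, chr3:6244410-6244430, minus strand: tgcgtaatactaacatgggtg
MIR157d, chr1:18026695-18026714, minus strand: gttttggtgtgagaaaagtg
Each lies outside the annotated gene, downstream of it. In each precursor nearly all short tags ended at 1 fixed base and differed only in where they began: 3217 of 3255 counts in MIR157a, 11 of 11 in MIR157b, 21 of 22 in MIR157c and 172 of 172 in MIR157d. That base lies 118, 118 and 116 nt past the base-proximal site in MIR157a, MIR157b and MIR157c, and in MIR157d 313 nt from the start of the 5p strand. cDNA was made with specific primers per the labels. Their positions are not given in the sources used here, and whether the fixed bases are primer ends was not tested. Among the MIR157a short tags of se, the 23-nt form printed above held 64.2% and 75.9%, the 21-nt form 16.6% and 9.56% and the 20-nt form 8.60% and 11.9%.

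The exception was a tag that carries the 5p strand itself, the first 19 bases of miR157a-5p, miR157b-5p and miR157c-5p, printed as the sequence that cannot be assigned to 1 precursor: ttgacagaagatagagagc. It matched the genome at 3 places. It had 38 counts in se replicate 1, listed under MIR157a, and 1 count in se replicate 2, listed under MIR157c.

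The MIR157 precursors did not share a pattern across libraries. Over the 8 libraries, log2(CPM + 1) values of the long tags correlated between MIR157a and MIR157b with Pearson's r = 0.17, between MIR157a and MIR157c with r = -0.26, and between MIR157b and MIR157c with r = -0.06. The precursors most like MIR157c among 73 others were MIR166b (r = 0.97), MIR399a (r = 0.82) and MIR399b (r = 0.79). Those most like MIR157a were MIR156c (r = 0.84), MIR159a (r = 0.81) and MIR398c (r = 0.75), and those most like MIR157b were MIR166f (r = 0.82), MIR827 (r = 0.71) and MIR399c (r = 0.68). These values describe 8 libraries that share depth, makeup and pairs of one genotype.

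Of the sister family MIR156, whose miRNAs repress the same SPL factors, 4 of 8 precursors (MIR156a to MIR156d) passed the filter among long tags. In fiery1 against wild type edgeR called 1 higher and 0 lower, with a median log2 fold change of 1.33. In MIR157 it called 0 higher and 1 lower of 3, with a median of -1.49, which is the value of MIR157b. Signs were mixed in both families, with 2 positive and 2 negative values in MIR156 and 1 positive and 2 negative in MIR157. MIR156c, the one called, had 28953 and 41710 counts in fiery1, 697 and 316 in hyl1, 758 and 2251 in se, and 373 and 458 in wild type, and its log2 fold change in fiery1 was 3.11 ± 0.71 (SE, edgeR adjusted p = 0.0198). Relative to the long tags of their libraries, MIR156c was thus higher in fiery1 and MIR157c lower. In MIR156a, base-proximal ends made up 80.5% and 85.9% in fiery1, against 21.7% and 21.7% in wild type, and loop-proximal ends 5.33% and 6.84% in fiery1, against 78.2% and 78.2% in wild type. The difference in the base-proximal share was 61.5 points in MIR156a beside 19.9 points in MIR157c. MIR156c and MIR156d also had base-proximal shares above wild type without overlap, 95.2% and 92.4% in fiery1, against 33.8% and 5.02% in wild type, for MIR156c, and 71.3% and 67.3% in fiery1, against 0.412% and 0% in wild type, for MIR156d. A higher base-proximal share without overlap in fiery1 was common, found in 45% of the 20 precursors compared. The loop-proximal shares of MIR156c and MIR156d overlapped, with 2.18% and 3.45% in fiery1, against 0% and 24.7% in wild type, for MIR156c, and 16.8% and 17.9% in fiery1, against 0% and 100% in wild type, for MIR156d. In hyl1 and se edgeR called none of the 4, and the median log2 fold changes were 1.83 and -0.07.

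Of the MIR172 family, which SPL factors raise, 2 of 5 precursors (MIR172b and MIR172e) passed the filter, and edgeR called none in any mutant. MIR172e, the nearest, had 1052 and 2678 counts in fiery1, 1 and 0 in hyl1, 2 and 2 in se, and 0 and 1 in wild type, with an edgeR adjusted p of 0.0567 in fiery1. MIR172b had 483 and 594 counts in fiery1, 228 and 0 in hyl1, 101 and 0 in se, and 1 and 0 in wild type. Among the short tags, edgeR called none of 7 MIR156 and 3 MIR172 precursors tested in any mutant. The fiery1, hyl1 and se comparisons share their 2 wild-type libraries.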

How the data were processed

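SPARE tags of 8 libraries were analysed, 2 for each of 4 genotypes. The deposited tables hold raw counts per tag made by the authors, with the precursor, position, length and strand of each, and a hits column whose meaning is not stated. Per the submitters' processing notes, cutadapt and TAIR10 were used (no versions stated). An aligner is not given in the sources here. From the labels' protocols, total RNA was ligated with T4 RNA ligase, primed with specific primers and amplified by PCR. Nothing states that replicates are separate cultures, so p-values measure the spread between libraries, which may be technical.

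Counts were summed by precursor and position, with tags of 18 to 25 nt kept apart from longer ones. The 13 blank counts were left out. Entries within 5 nt on the genome were merged (111 to 108), and 99.57% of counts matched the TAIR10.1 reference at their locus. edgeR 4.0.16 (quasi-likelihood, TMM, filterByExpr with minimum count 10, 1 term per genotype, all 8 libraries) gave Benjamini-Hochberg adjusted p-values over all tested precursors at a threshold of 0.05. DESeq2 1.42.0 was an alternative. Folds were made with RNAfold 2.7.2. Shares needed 20 counts in a library and were compared by exact two-sided permutation tests. The floor was 3 counts. Alternatives were 2 other scalings, no filter, DESeq2, fits of 2 genotypes only, a replicate block, a term for later sample numbers, tags of all lengths, MIR157a and MIR157b summed, tags with hits at 0, other windows and minimums, and leaving out each library.

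The text names the 4 members, the positions with 10% or more of a member's counts in a library, at most 3 members of each of MIR156 and MIR172 (those called, or the 2 with the most counts), and the 3 precursors most like each tested member. MIR156a, MIR156d, the positions with lower shares and the shares and offsets of MIR156a to MIR156d were added after their values were seen. Members and lists were chosen with earlier results of these data known. Transcripts of the mutated genes were not analysed here.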

Additional observations from a re-analysis of the deposited data

How the results depend on the processing

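Among tags of 26 nt or more, edgeR called 1 MIR157 precursor in fiery1. DESeq2 and a fit of fiery1 and wild type only called 2, whereas the replicate block and tags of all lengths called 0, and leaving out 1 library called 0 to 1. MIR157c stayed negative in all 14 alternatives there, between -3.29 and -2.01, and 9 of them kept an adjusted p under 0.05 (range 2.62e-13 to 0.187); it was -2.42 with the block (adjusted p = 0.0940). In hyl1 DESeq2 called 1 and in se 2, with 1 in se without the filter and 2 with tags of all lengths. Among short tags in se, 1 was called with library totals, no filter, DESeq2, 2 genotypes only and the replicate block, 2 with tags of all lengths, and 0 to 1 with a library left out; the call was always that of MIR157a (6.24 without se replicate 2), joined by MIR157c with tags of all lengths. Over all precursors of the long tags, DESeq2 called 21 of 74 in fiery1, 19 in hyl1 and 21 in se. In se, 2 of 90 were called without the filter and 17 of 101 with tags of all lengths. For short tags in se, 3 of 78 were called with library totals, 3 of 108 without the filter and 4 of 78 with DESeq2. With 2 genotypes only 2 of 74 were called there, and with the replicate block 2 of 78. The cause of the changes in calls between settings was not tested. Signs that turned were all of uncalled values. MIR157b became 0.13 in fiery1 with the block, and with a library left out it ranged from -2.33 to 10.35 in fiery1, -4.96 to 10.02 in hyl1 and -12.54 to 4.01 in se. Likewise MIR157c ranged from -0.02 to 1.06 in hyl1, MIR157a short tags from -5.33 to 6.97 in hyl1, and MIR157d from -0.22 to 9.09 in fiery1, -0.24 to 9.46 in hyl1 and -4.06 to 7.39 in se. MIR157d also became -0.78 in fiery1 and 1.61 in se with all lengths, and 0.01 in se with library totals. The base-proximal difference of MIR157c in hyl1 ranged from -17.9 to 0.112 points. At the exact position it was 0 in every genotype. Over all precursors of the long tags in fiery1, the 15 calls became 40 with 2 genotypes only, 5 without the filter, 1 with all lengths, 0 with the block and 0 to 2 with a library left out. Correlations of the deviations of same-numbered libraries were 0, -0.14 and 0.05 in fiery1, hyl1 and se for long tags and -0.02, 0.22 and 0.15 for short tags. With 2 pairs and no label that ties the numbers to a batch, the libraries were taken to share only a number. A crossed pairing in hyl1, added after seeing the data as was the 2 nt window, called 0. MIR157a, MIR157b and MIR157d had 0 to 3 counts in several libraries, which limits the precision of their values.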
